A study of Mus musculus and Rattus norvegicus with 35 samples.

Results

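Neurexins and neuroligins are cell adhesion proteins that meet across the synaptic cleft. The data here are the genes Nrxn2, Nrxn3, Nlgn1, Nlgn2 and Nlgn3 and every circular RNA (circRNA) that the deposited tables assign to them as host genes. The members were chosen by gene symbol, with earlier results of these data known: 5 of 24601 genes in the mouse table and 5 of 22409 in the rat table. As hosts they held 42 of 28482 mouse circRNAs and 18 of 18075 rat circRNAs. In mouse, Nrxn3 and Nlgn1 had 18 circRNAs each, Nrxn2 had 4, Nlgn3 had 2 and Nlgn2 had 0. In rat, Nlgn1 had 11, Nrxn2 and Nrxn3 had 3 each, Nlgn2 had 1 and Nlgn3 had 0.

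Neurexins sit mainly in the presynaptic membrane and neuroligins in the postsynaptic membrane, where they bind each other and help to organise synapses. Nlgn1 protein is known mainly from excitatory synapses, Nlgn2 from inhibitory synapses, and Nlgn3 from both kinds. Neurexin genes are spliced in many ways, and 1 alternative exon (splice site 4) changes which partners a neurexin binds. A circRNA forms when the end of an exon is joined back to the start of the same exon or of an earlier one, so that reads over that back-splice mark it.

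The series holds 34 RNA libraries with deposited values. Mouse libraries came from C57BL/6 animals. Brain, heart, liver, lung and testis were sampled at 14 weeks (1 library each) and 20 weeks (2 libraries each), and a second 14-week brain library was selected with oligo-dT beads for poly(A) RNA. Hippocampus was taken at embryonic day 18 (E18) and postnatal days 1, 10 and 30 (P1, P10 and P30), with 2 libraries each. Hippocampal homogenate and synaptosomes (a fraction enriched in pinched-off nerve endings) had 1 library each, from mice of 4 weeks. The CA1 layer of cell bodies (somata) and the layer of dendrites and axons (neuropil) had 1 library each from 4-week mice and 1 each from 4-week Sprague Dawley rats. Rat hippocampal neurons at 28 days in vitro received water or 40 µM bicuculline, a GABA-A receptor blocker that raises network activity, for 12 h, with 2 libraries each. The labels do not say whether replicate libraries came from separate animals or cultures, so p-values measure the spread between libraries, which may be technical.

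Gene levels are in TPM, a share of all transcripts corrected for transcript length, and circRNA levels in RPM, back-splice reads scaled to the size of the library. Depth was low for circRNAs. The 27 rRNA-depleted mouse libraries held 1231 to 43523 back-splice reads in all and the 6 rat libraries 8879 to 24727. The step of 1 read ranged from 0.448 to 2.14 RPM over the mouse libraries and from 0.763 to 1.05 RPM over those of rat. The member circRNAs took 789 reads over the mouse libraries and 241 over the rat libraries, and 20 of the 42 mouse and 13 of the 18 rat circles had fewer than 5 reads in all. The poly(A) library held 127 circRNA reads and 0 of any member. Each tissue carried its own markers: neuron markers summed to 3216 to 3622 TPM in brain and at most 10.8 TPM elsewhere, although Tubb3 is listed at 0 in every mouse library, and heart, liver, lung and testis markers were at least 22478 TPM in their own tissue. Liver markers also reached 620 to 2534 TPM in brain, and heart markers 308 to 463 TPM in lung.

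The sequences below are the back-splice junctions of the circles that carry most reads, because these 30 bases are what tells a circle from the linear RNA. The circles have coordinates in the builds mm9 and rn5. Their exon lengths were matched within the same gene to GENCODE M21 transcripts (build GRCm38), and the genomic span from first to last exon was the same in both builds for each circle shown. Capitals mark the last 15 bases of the circle's last exon and small letters the first 15 bases of its first exon, 5′ to 3′.
Nlgn1, 811-base exon: TCCCAACTGAAGATGgatatagacccactg
Nlgn1, 60-base and 153-base exons: GGCTTGGGGTACTTGgtccccttacaaaga
Nrxn3, 302-base and 162-base exons: GGCTGCCTTAAAGAGcacgagaggagaacg
Nrxn3, 6 exons, 1014 bases: ACCAGTGCAATGACCgcaaaggacctgaga
Nrxn3, 4 exons, 752 bases: ACAGCCAGCATTCAGctggtgcaacataca
Nrxn3, 90-base and 308-base exons: ACAGCCAGCATTCAGgcaacactgataatg
Nrxn2, 182-base and 172-base exons: AGAGGTACCCGGCAGctgggaccacataca
The 4-exon Nrxn3 circle and the Nrxn2 circle both begin with an exon of 182 bases followed by one of 172 bases.

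Nlgn1 gave most of the members' circRNA reads when summed over the libraries, though not in each group. At E18 Nlgn1 and Nrxn3 circles had 44 reads each, and in the 14-week rRNA-depleted brain library 17 and 20. Its leading circle in mouse was a single exon of 811 bases at chr3:26032164-26032974 (mm9, minus strand), with 301 reads in 15 of the 27 rRNA-depleted libraries. In the matched transcript model 318 bases of this exon lie before the start codon and 493 are coding, so the exon holds the start of the protein. The rat counterpart at chr2:131485593-131486399 (rn5, minus strand) spanned 807 bases and had 151 reads in 6 of 6 libraries. These single circles took 56.6% of all Nlgn1 back-splice reads in mouse (301 of 532, exact 95% binomial interval 52.2% to 60.8%) and 70.2% in rat (151 of 215, 63.6% to 76.3%). Counting every circle that joins at either end of the same exon, the shares were 82.0% in mouse (8 circles, 436 reads) and 88.8% in rat (6 circles, 191 reads). These intervals cover counting error only, since reads are not independent molecules.

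The other Nlgn1 circles were smaller in reads. The second, at chr3:26031666-26032974, began at the same splice site and ran 1309 bases (75 reads in 14 libraries), and a rat circle at chr2:131485091-131486399 had the same span (32 reads in 5 libraries). The third joined exons of 60 and 153 bases at chr3:25811564-25819159 (43 reads in 15 libraries). The fourth, at chr3:26032164-26034311, ended at the same site as the 811-base exon and began further upstream, with a span of 2148 bases (41 reads in 10 libraries). Among all circRNAs above 0 the 811-base circle ranked 113 of 13694 by mean RPM at P30 and 34 of 5667 in mouse CA1 somata, and the rat circle ranked 22 of 6851 in control cultures. Other ranks of the 811-base circle ran from 77 of 8017 in mouse CA1 neuropil to 214 of 10237 at E18. Those of the rat circle ran from 19 of 8661 in treated cultures to 118 of 6339 in CA1 somata.

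In mouse, Nrxn3 reads were spread more evenly over its circles than those of Nlgn1. The leading one joined exons of 302 and 162 bases at chr12:90425466-90431651 (mm9, plus strand), with 57 reads in 12 libraries. In the matched model 362 of its 464 bases lie before the start codon, so this circle also comes from the start of a protein. The second held 6 exons at chr12:90741462-90771454 (31 reads in 9 libraries) and the third 4 exons at chr12:91214787-91443258 (27 reads in 13 libraries). Circles that started at the same site as the leading one took 40.3% of Nrxn3 reads (87 of 216, exact 95% interval 33.7% to 47.1%).

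The 90-base exon of splice site 4 lay within or at the edge of several Nrxn3 circles. In the deposited exon lists, 3 mouse Nrxn3 circles held a 90-base block, with 51 of 216 reads (23.6%, exact 95% interval 18.1% to 29.8%), as did 2 of 3 rat circles, with 17 of 20 reads. The lists give the exons inside the circle's span, so a read over the back-splice does not show that an inner exon was kept. In the circle of 90 and 308 bases at chr12:91437587-91443258 the back-splice itself joins to the 90-base exon, and it had 9 reads in 7 libraries. In GENCODE M21, 5 Nrxn3 transcript models hold the exon, 2 join its neighbours directly, and all 90 bases are coding.

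Nrxn2, Nlgn2 and Nlgn3 gave few circles. Nrxn2 had 35 reads over 4 mouse circles, led by exons of 162, 82 and 439 bases at chr19:6472258-6473756 (15 reads in 10 libraries), for which no M21 transcript had the same run of exon lengths. The second Nrxn2 circle joined exons of 182 and 172 bases at chr19:6504875-6509949 (11 reads in 8 libraries). Nlgn3 had circles of 4 and 2 reads on chromosome X, and Nlgn2 had 1 read in all, in rat CA1 somata. In the rRNA-depleted brain libraries the mean level of the Nrxn2 gene (94.4 ± 31.2 TPM, SD, n = 3) was close to that of Nlgn1 (94.6 ± 6.5 TPM). In these libraries Nrxn2 circles had 4 reads and Nlgn1 circles 60. The genes were not close in the poly(A) brain library, at 529 TPM for Nrxn2 and 24.5 TPM for Nlgn1.

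**Figure D1:**
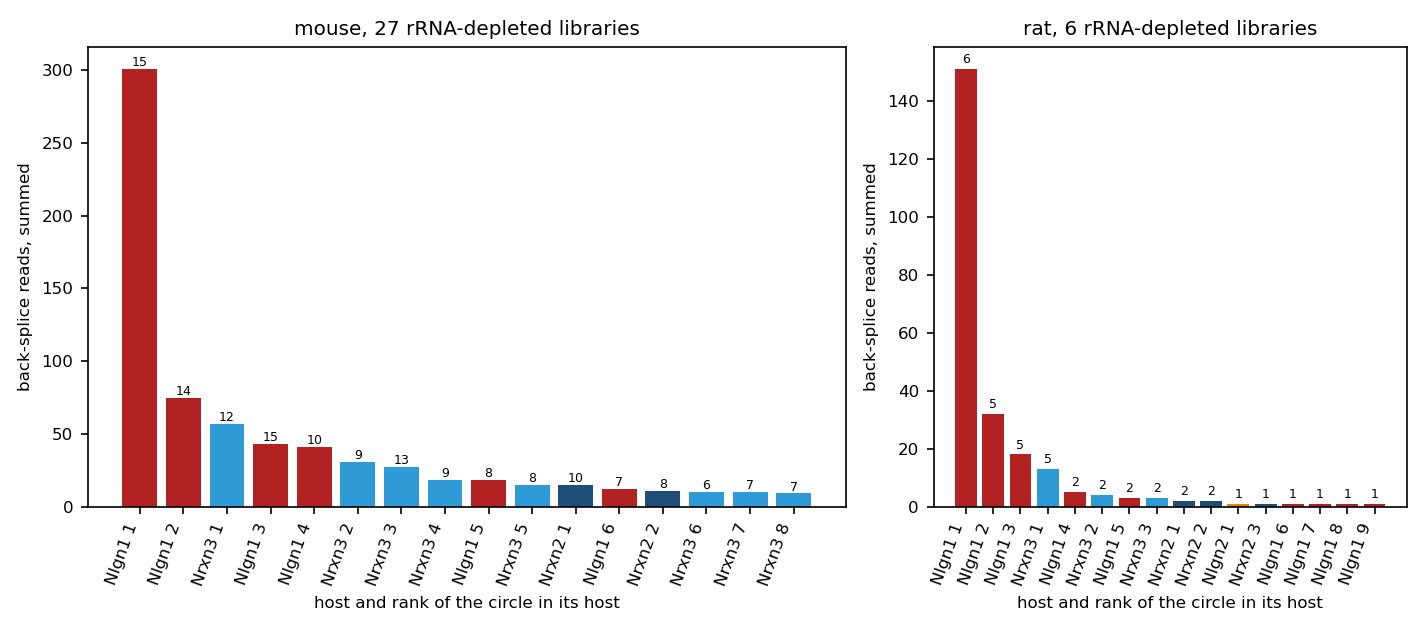
Back-splice reads per member circRNA (y axis, summed over the rRNA-depleted libraries) for the 16 circles with most reads in mouse and in rat, labelled by host and rank within the host. Numbers over bars are libraries with a read; the leading Nlgn1 circle has 301 reads in mouse and 151 in rat.

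All 5 genes were brain genes in the tissue set, but they differed in what was left elsewhere. Brain levels in the 14-week library and the first and second 20-week libraries were 87.1, 98.8 and 97.8 TPM for Nlgn1. Outside brain Nlgn1 did not exceed 0.457 TPM in any of 12 libraries, and 1 liver library lists it at 0. Nrxn3 measured 100.1, 148 and 153 TPM in brain, 4.19 to 5.37 TPM in testis and at most 1.58 TPM in heart, liver and lung. Nlgn3 measured 60.95, 31.0 and 45.1 TPM in brain, 1.17 to 1.88 TPM in lung and at most 0.590 TPM elsewhere.

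Nrxn2 and Nlgn2 kept a clear level in lung. Nrxn2 measured 127, 64.5 and 92.1 TPM in brain and 16.9, 11.2 and 8.37 TPM in lung, against 1.29 to 4.598 TPM in heart. Nlgn2 measured 48.8, 25.9 and 28.2 TPM in brain and 10.1 to 13.1 TPM in lung, against at most 2.90 TPM in heart, testis and liver. For both genes brain was first and lung second, with no overlap between these tissues or between lung and the next one. Below that the ranges of heart and testis overlapped for both. Liver was below both tissues for Nrxn2 (at most 0.815 TPM) and overlapped with testis for Nlgn2. For Nlgn1 lung and testis overlapped, and for Nrxn3 heart overlapped with lung.

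On the log2 scale of TPM plus 1, brain exceeded the mean of the other 4 tissues by 6.37 ± 0.11 for Nlgn1, 5.80 ± 0.21 for Nrxn3, 4.95 ± 0.17 for Nlgn3, 4.596 ± 0.28 for Nrxn2 and 3.29 ± 0.25 for Nlgn2 (SE, 3 brain and 12 other libraries). Nlgn1 reached the filter of 1 TPM only through the 3 brain libraries and so had to differ, and its difference is a description. The other 4 passed the test in limma, with an adjusted p of 4.0e-08 or lower. Of all 18966 genes tested, 45.4% were called higher in brain, and the median difference over all genes was 0.34. With equal medians of all libraries the brain differences fell by 0.82 and the 5 calls were kept, while the calls over all genes went from 8612 higher and 5307 lower to 4594 and 9342. In bulk tissue, fewer cells of a type and less RNA per cell cannot be told apart.

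The partners of these genes were largely brain genes too. The lists named here were chosen with results of these data known. Of 26 tested further ligands and partners of neurexins, 23 were higher in brain and 1 (Fam19a3, a secreted ligand) lower. Of all genes tested, 45.4% were called higher. Among the largest differences were Cbln1, a secreted neurexin ligand, at 6.58 ± 0.11 and Clstn3, a calsyntenin, at 6.34 ± 0.40. All 10 neuroligin scaffolds and inhibitors were higher, among them Dlg2 (5.88), a relative of PSD-95, and Lhfpl4 (4.85), which belongs to inhibitory synapses. All 11 intracellular partners were higher, led by the vesicle calcium sensor Syt1 (7.81), Apba2 (6.48) and Lin7b (6.17). A list gene at 1 TPM only in the 3 brain libraries passes the filter through brain and then must differ, so its call is no separate support. With any 1 brain library left out such a gene is not tested, and 15 ligands and partners were called higher. With equal medians these lists had 23, 10 and 8 members higher and 3, 0 and 0 lower. Of 33 other trans-synaptic adhesion genes 32 were higher, led by Cadm3 (6.39), Lrfn5 (6.38) and Lrrc4c (5.80), and with equal medians 29 were higher and 1 lower.

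In the tissue set, circRNAs of the members were found almost only in brain. Nlgn1 circles had 17 reads in the 14-week brain library and 27 and 16 in the 20-week libraries (20.0, 50.1 and 30.7 RPM). Outside brain there were 0 reads in 12 libraries, so brain was at least 121-fold higher than a floor of 3 reads over those libraries. Nrxn3 circles had 20, 6 and 6 reads in brain (23.5, 11.1 and 11.5 RPM) and 2 reads outside, both in the 14-week testis library, the deepest library outside brain (23286 circRNA reads). Nrxn2 and Nlgn3 had 0 reads outside brain, but only 4 and 2 reads over the 3 brain libraries, with 0 in the 14-week library. Their brain means were 9.04 and 4.52 times the floor of 3 reads. The floor allows for counting error outside brain only, so with so few brain reads these values are not lower bounds.

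The summed circRNAs of Nlgn1 were higher in brain by 4.79 ± 0.27 and those of Nrxn3 by 3.64 ± 0.30 (log2 of RPM plus the value of 1 read). The Nlgn1 sum reached the filter only through the 3 brain libraries and so had to differ, and its difference is a description. The Nrxn3 sum had reads in the 3 brain libraries and outside brain only in the 14-week testis library. It thus also reached the filter mainly through brain, and its call in limma (adjusted p = 1.0e-07) is likewise a description. Only these 2 of the 5 hosts had reads in enough libraries to be tested, and 59% of all 3095 tested hosts were called higher in brain. Of the 42 circles 5 were tested and all 5 were called higher: the 4 leading Nlgn1 circles and the third Nrxn3 circle, against 47.7% of all circles tested. A circle seen only in brain needs all 3 brain libraries to pass the filter and then must differ, so these counts are no separate support. Without any 1 of the brain libraries 0 of the 5 circles and 1 of the 2 hosts passed the filter. CircRNA totals also differed: brain libraries held 25200 to 30723 RPM and the other tissues 1287 to 16727 RPM. With circRNA totals made equal, the 5 circles stayed called, at 0.64 to 1.81.

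**Figure D2:**
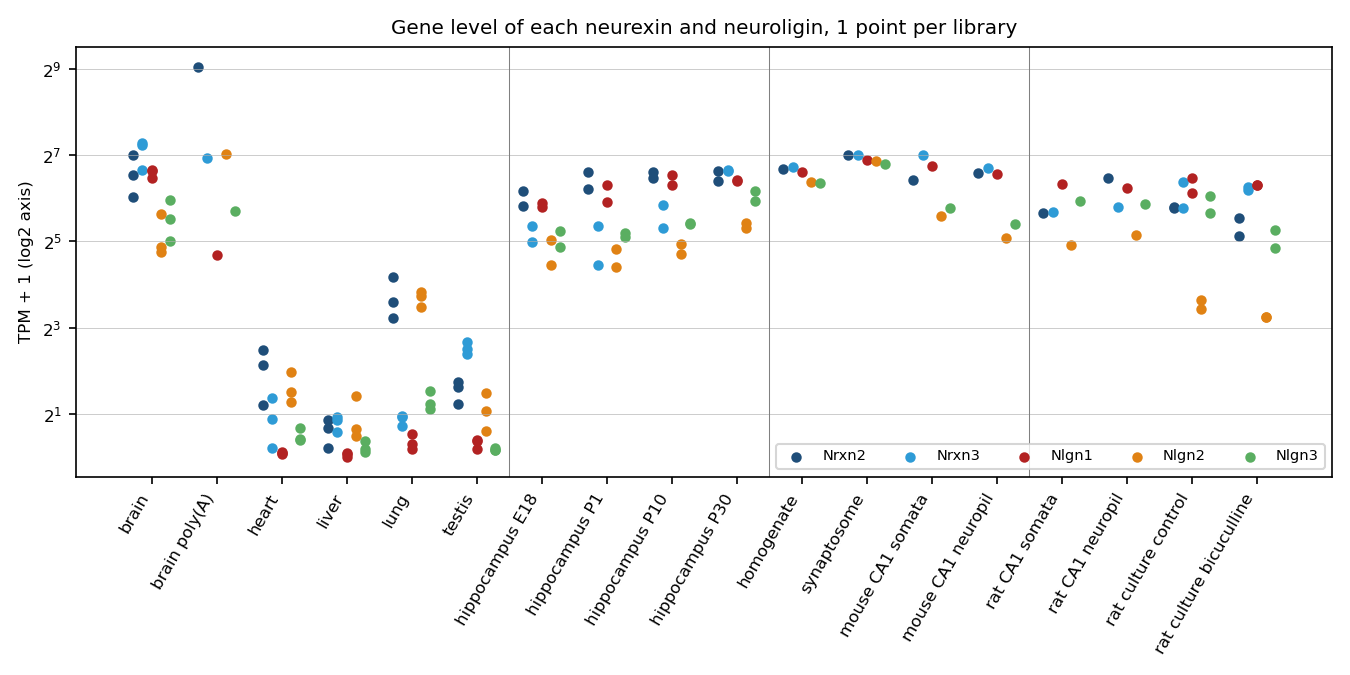
TPM plus 1 on a log2 axis for the 5 genes in each library (1 point per library, grouped by tissue, stage, fraction or culture). Brain and hippocampus points lie above all points of heart, liver, lung and testis, with Nrxn2 and Nlgn2 in lung next below.

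All 5 genes rose in the hippocampus between E18 and P30, by unequal amounts. Nrxn3 measured 30.8 and 40.2 TPM at E18, 20.9 and 39.6 at P1, 38.6 and 56.1 at P10, and 99.6 and 97.8 at P30. Its P30 libraries lay above all earlier ones, and the earlier stages overlapped. The difference between P30 and E18 was 1.46 ± 0.29 (log2, adjusted p = 0.0019). Nlgn3 measured 28.3 and 36.6 TPM at E18, 35.5 and 33.2 at P1, 41.9 and 41.3 at P10, and 70.3 and 59.9 at P30, a difference of 0.99 ± 0.16 (adjusted p = 0.00069). P30 was again apart from every earlier stage.

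The other 3 rose less. Nlgn1 went from 54.7 and 58.6 TPM at E18 to 84.5 and 82.7 at P30 (0.55 ± 0.16, adjusted p = 0.016), and its P10 libraries (78.4 and 92.5) overlapped with P30. Nrxn2 went from 55.4 and 70.8 TPM to 97.7 and 83.4 (0.52 ± 0.18, adjusted p = 0.035), with P1 already at 96.6 and 73.1. Nlgn2 went from 31.8 and 20.9 TPM to 42.2 and 38.7 (0.63 ± 0.22, adjusted p = 0.036). Of all genes tested 29.5% were called higher at P30, and 5 of 5 members were. The median difference was 0.63 for the members and 0.01 over all genes.

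The calls of Nlgn3 and Nrxn3 held without each library in turn, and the others did not. Nlgn1 missed the threshold without E18 replicate 1 or either P30 replicate (adjusted p 0.058 to 0.078). Nrxn2 did so without the same libraries (0.052 to 0.21), and Nlgn2 without E18 replicate 2 or either P30 replicate (0.085 to 0.26). With equal medians all 5 differences dropped by 0.14 and stayed above 0, and Nrxn2 and Nlgn2 were no longer called (adjusted p = 0.11 and 0.12).

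The steps between successive stages were tested next. Between P10 and P30, Nrxn3 rose by 1.07 ± 0.29 (adjusted p = 0.021) and Nlgn3 by 0.63 ± 0.16 (adjusted p = 0.019), where 17% of all genes were called higher. Nlgn1 and Nrxn2 differed by -0.03 each over this step, and Nlgn2 by 0.54 (adjusted p = 0.096). Between E18 and P1 and between P1 and P10 no member passed the test, with differences of -0.28 to 0.42 and of 0.13 to 0.67, and 1.73% and 35.2% of all genes called in either direction. The largest of these was Nrxn3 between P1 and P10 (0.67 ± 0.29, adjusted p = 0.094). Whether one step differs from another, within a gene or between genes, was not tested.

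The balance of the 2 neurexins within a library moved with stage. The ratio of Nrxn3 to Nrxn2, which does not depend on library scaling, was 0.557 and 0.569 at E18, 0.216 and 0.542 at P1, 0.399 and 0.642 at P10, and 1.02 and 1.17 at P30. The P30 values lay above all 6 earlier ones. Adult whole brain gave 0.790 at 14 weeks and 2.30 and 1.67 at 20 weeks, so the ratio also varied widely between brain libraries. Nlgn1 was the highest of the 3 neuroligins in every rRNA-depleted mouse brain and hippocampus library, with 34.3% to 63.4% of their summed TPM. Nlgn3 took 24.6% and 31.5% of that sum at E18 and 35.7% and 33.1% at P30.

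Levels of cell type markers changed over the same stages. Summed oligodendrocyte markers (5 of 5 detected at P30) went from 25.2 to 25.9 TPM at E18 to 8529 to 9627 at P30, excitatory neuron markers from 479 to 485 to 1575 to 1718 TPM, inhibitory neuron markers from 46.5 to 79.9 to 295 to 341 TPM, and dividing-cell markers from 266 to 277 to 8.05 to 9.18 TPM. Their part in the gene differences was not tested.

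Partners of the members rose and fell between E18 and P30, where 29.5% of all genes were called higher and 26.8% lower. Of 26 further ligands and partners 15 rose and 3 fell (Cbln1, Nxph2 and Nxph4), led by the secreted ligands C1ql2 (4.79 ± 0.24), C1ql3 (4.26 ± 0.18) and Fam19a1 (3.16 ± 0.23). Of 10 neuroligin scaffolds and inhibitors 7 rose, among them the inhibitory-synapse gene Iqsec3 (2.88 ± 0.21) and the PSD-95 relative Dlg3 (1.59 ± 0.21). Only Mdga1, which blocks neuroligin binding, fell there (-0.45 ± 0.16), a call that was lost without any E18, P10 or P30 library. Of 11 intracellular partners 4 rose and 4 fell: Syt1 (3.18), Lin7b (3.02) and Lin7a (1.66) were among the first, and Lin7c, Khdrbs1, Khdrbs2 and Cask were the second. Both counts of 4 are near the shares over all genes. Khdrbs genes encode RNA-binding proteins known to act on splice site 4 of neurexins. Of 33 other adhesion genes 14 rose, led by Il1rap (3.44), Cadm2 (2.33) and Slitrk4 (1.97), and 5 fell (Lrfn4, Flrt2, Ptprf, Flrt3 and Cadm1), and the count was 1 to 2 without either P30 replicate or E18 replicate 2. With equal medians the counts were 14, 7, 4 and 11 higher and 3, 1, 5 and 5 lower.

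CircRNAs of Nlgn1 were highest at P30, and those of both Nlgn1 and Nrxn3 were lowest at P10, as were all circRNAs together. Nlgn1 circles had 23 and 21 reads at E18, 30 and 19 at P1, 17 and 22 at P10, and 48 and 45 at P30 (12.5 and 13.1, 15.1 and 15.5, 9.79 and 10.8, and 27.8 and 27.5 RPM). The P30 libraries lay above all others, and P10 was the lowest stage. The summed Nlgn1 circles were higher at P30 than at E18 by 1.08 ± 0.21 (adjusted p = 0.023) and higher than at P10 by 1.38 ± 0.21 (adjusted p = 0.037). In these comparisons 5.68% and 0.931% of all 4295 tested hosts were called higher, and Nlgn1 was the only one of 4 tested members. Without either E18 or either P30 library the call against E18 was lost (adjusted p 0.082 to 0.12). All circRNAs together stood at 11493 and 10826 RPM at E18, 9787 and 9556 RPM at P10, and 17782 and 18414 RPM at P30. With circRNA totals made equal the Nlgn1 difference between P30 and E18 was 0.40 (adjusted p = 0.32 in limma). The difference between P30 and P10 was not rerun with equal totals or other settings.

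Nrxn3 circles had 21 and 23 reads at E18, 27 and 10 at P1, 9 and 11 at P10, and 22 and 12 at P30 (11.4 and 14.3, 13.6 and 8.16, 5.18 and 5.38, and 12.7 and 7.33 RPM). The stages overlapped apart from P10, which was lowest, and the difference between P30 and E18 was -0.38 ± 0.36 (adjusted p = 0.56) while the Nrxn3 gene rose. Per TPM of the gene, Nrxn3 circles stood at 0.371 and 0.357 RPM at E18 and at 0.128 and 0.0750 RPM at P30. This ratio differed by -1.84 ± 0.59 on the log2 scale, which did not pass in limma (adjusted p = 0.092, with 2.8% of 4208 hosts called in either direction). For Nlgn1 the same ratio was 0.229 and 0.223 at E18 and 0.329 and 0.333 at P30, a difference of 0.52 ± 0.48 (adjusted p = 0.56). Nrxn2 circles had 1 to 4 reads in each stage library, too few to show a change.

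Single circles were tested for 28 of the 42, and 3 were called higher at P30 than at E18, where 6.27% of all circles tested were. The filter needs reads in 2 libraries, and 2 of the 3 reached it only through P30, so the count is no support. The 811-base Nlgn1 circle had 14 and 10 reads at E18, 17 and 10 at P1, 8 and 14 at P10, and 35 and 29 at P30 (7.62 and 6.24 RPM at E18, 20.3 and 17.7 at P30). It rose by 1.39 ± 0.26 (adjusted p = 0.031). Over P10 it rose by 1.65 ± 0.26 (adjusted p = 0.019, with 4.35% of circles called higher), not rerun with other settings. Against E18 it was called by edgeR on the recovered reads (1.44, adjusted p = 0.017), but not with equal circRNA totals (0.72, adjusted p = 0.25) or with no filter (adjusted p = 0.11), and 9 of the 14 alternatives run left it uncalled. The 2148-base Nlgn1 circle had 0 reads at E18 and P1, 1 and 0 at P10, and 3 and 5 at P30 (2.33 ± 0.46, adjusted p = 0.036, and 0.30 in edgeR). The last was a Nrxn3 circle at chr12:90425466-90592923 with 1 read in each P30 library and 0 elsewhere (adjusted p = 0.015, and 0.54 in edgeR), so it rests on 2 reads. No call among the 3 held without each E18 or P30 library in turn: the adjusted p of the 811-base circle was 0.11 to 0.30 without 1 of them, and 0.052 and 0.056 without P1 replicate 1 or 2.

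**Figure D3:**
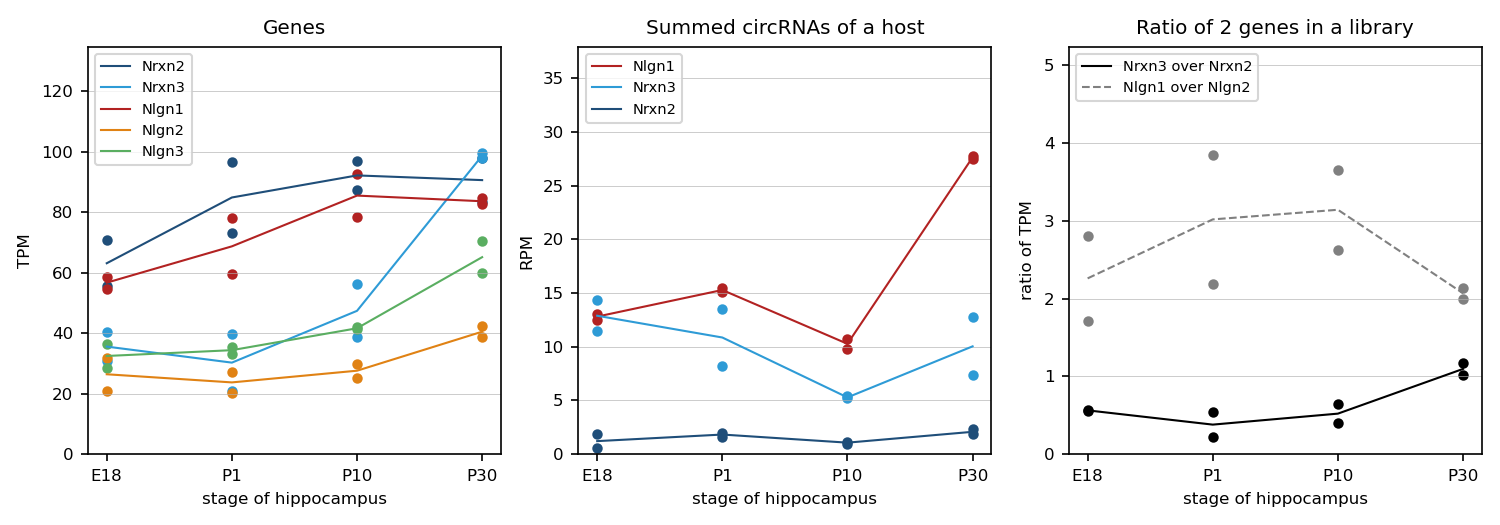
Hippocampus by stage (x axis), 2 libraries each as points with lines through their means: gene TPM (left), summed circRNA RPM per host (middle) and the ratio of 2 genes within a library (right). Nrxn3 TPM and Nlgn1 circRNA are highest at P30, and the Nrxn3 to Nrxn2 ratio is 1.02 and 1.17 there.

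CA1 neuropil and somata had 1 library each per species, so these are values without a test. In mouse, neuropil and somata measured 93.7 and 107 TPM for Nlgn1, 103 and 127 for Nrxn3, 40.9 and 53.5 for Nlgn3, 32.8 and 46.7 for Nlgn2, and 94.7 and 84.3 for Nrxn2. In rat the values were 74.2 and 78.7 for Nlgn1, 54.3 and 50.3 for Nrxn3, 56.8 and 59.9995 for Nlgn3, 34.3 and 29.0 for Nlgn2, and 87.5 and 49.1 for Nrxn2. Nrxn2 had the highest ratio of neuropil to somata of the 5 genes in both species, 1.12 in mouse and 1.78 in rat. Of all genes at 1 TPM or more in both libraries, 36.8% had a larger ratio in mouse and 14.7% in rat. Nlgn1 and Nlgn3 were lower in neuropil in both species, with ratios of 0.876 and 0.766 in mouse and 0.942 and 0.947 in rat.

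CircRNAs of Nlgn1 were higher in neuropil, as were circRNAs as a whole. Nlgn1 circles had 68 reads in neuropil and 49 in somata in mouse (73.7 and 45.3 RPM), a ratio of 1.63 (exact 95% interval 1.11 to 2.40). In rat they had 49 and 25 reads (51.4 and 20.2 RPM), a ratio of 2.54 (1.54 to 4.29). All circRNAs together had ratios of 2.05 and 2.00, which lie inside the Nlgn1 intervals. Within Nlgn1 the ratios of the mouse circles were unlike, with intervals that overlap: the 811-base circle had 32 and 33 reads (ratio 1.14, 0.677 to 1.91) and the 1309-base circle 20 and 5 reads (4.69, 1.71 to 16.0). In rat the 807-base circle had 29 and 15 reads (2.50, 1.3 to 5.03) and the circle of 1309-base span 13 and 8 reads (2.11, 0.809 to 5.86). Nrxn3 circles had 17 and 8 reads in mouse (2.49, 1.02 to 6.67) and 8 and 1 in rat. The intervals cover counting error of these libraries and not the spread between animals.

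Glial and vascular markers moved with neuropil as well. Summed astrocyte markers were 5785 TPM in mouse neuropil and 2314 in somata, and 7772 and 3707 in rat. Microglia markers were 605 and 247 TPM in mouse and 543 and 235 in rat, and endothelial markers 236 and 83.9 in mouse and 285 and 121 in rat. Their part in the member values was not tested.

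**Figure D4:**
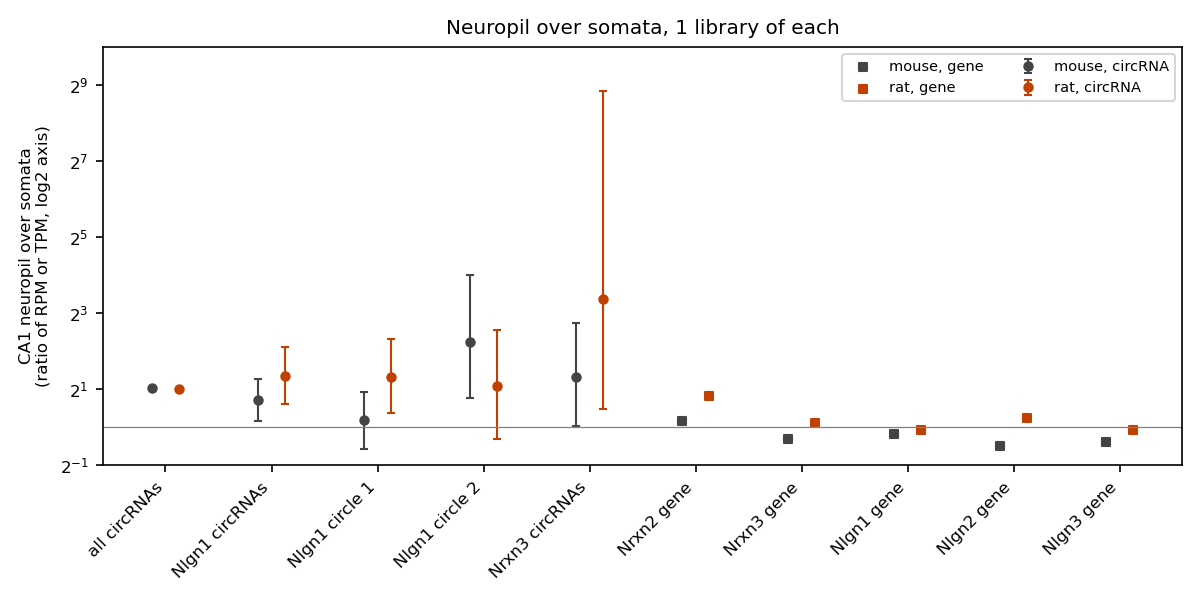
Ratio of CA1 neuropil to somata on a log2 axis, 1 library each: circRNA sums and Nlgn1 circles 1 and 2 as circles with exact 95% counting intervals, gene TPM ratios as squares without an interval. All circRNAs stand at 2.05 (mouse) and 2.00 (rat), and Nlgn1 genes lie at 0.876 and 0.942.

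In synaptosomes all 5 genes had higher values than in the homogenate, each from 1 library and without a test. Nlgn2 measured 116 against 81.7 TPM (ratio 1.42), Nlgn3 110 against 80.5 (1.37), Nrxn2 127 against 101 (1.26), Nlgn1 118 against 96.5 (1.22) and Nrxn3 127 against 105 (1.21). The median ratio over 13703 genes was 0.815, and 16.1% to 23.4% of genes had a larger ratio than the members. Nlgn1 circles had 67 and 63 reads (36.8 and 28.2 RPM), a ratio of 1.303 (exact 95% interval 0.910 to 1.87), and all circRNAs had 1.46. Markers of several cell types differed in both directions. Astrocyte markers were 12276 TPM in synaptosomes and 2347 in the homogenate, oligodendrocyte markers 10325 and 5430, microglia markers 818 and 219, and excitatory neuron markers 1908 and 1247. General neuron markers were 2206 and 4075, inhibitory neuron markers 216 and 444, and endothelial markers 13.1 and 80.4 TPM. Their part in these values was not tested.

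The order of the members differed between the poly(A) and the rRNA-depleted 14-week brain library. With 1 library on each side, selection and differences between libraries cannot be told apart. At 14 weeks Nrxn2 measured 529 TPM in the poly(A) library and 127 in the rRNA-depleted one (ratio 4.17), and Nlgn2 129 and 48.8 (2.64). Nrxn3 measured 121 and 100.1 (1.21) and Nlgn3 50.8 and 60.95 (0.834, the median ratio of all 14247 genes). Nlgn1 measured 24.5 and 87.1 (0.282), and 96.5% of genes had a larger ratio, against 1.54% for Nrxn2. The share of Nlgn1 in the 3 neuroligins was 12.0% in the poly(A) library and 44.2% in the other. The order of Nrxn2 and Nrxn3 also differed between rRNA-depleted brain libraries. Nrxn2 was above Nrxn3 at 14 weeks and below it at 20 weeks (64.5 and 148 TPM in the first 20-week library).

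In rat cultures no member gene passed the test after 12 h of bicuculline in the main fit. With a term for replicate number (a replicate block), Nlgn3 and Nrxn2 were called lower (adjusted p = 0.00073 and 0.019 in limma). The 4 libraries cannot decide which fit applies. The values below are from the main fit. Nlgn3 measured 65.5 and 49.0 TPM in control and 27.8 and 37.1 TPM in treated cultures (-0.80 ± 0.22, adjusted p = 0.13). Nrxn2 measured 54.7 and 53.4 TPM in control and 34.0 and 45.3 TPM in treated cultures (-0.45 ± 0.18, adjusted p = 0.25). Nlgn2 measured 11.4 and 9.83 TPM in control and 8.45 and 8.48 TPM in treated cultures (-0.29 ± 0.18, adjusted p = 0.45). For these 3 genes the treated libraries lay below the control libraries. Nlgn1 (68.1 to 87.6 TPM) and Nrxn3 (53.9 to 81.9 TPM) overlapped between the groups. In limma 2.57% of all 13341 genes were called in either direction, and 0 of the 5 members were. Nlgn3 and Nrxn2 had an unadjusted p under 0.05, as did 19.8% of all genes.

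Activity-induced genes stood apart between the groups. Their summed markers (Arc, Bdnf, Nptx2, Fosb and Homer1) were 138 to 143 TPM in control and 1022 to 1328 TPM in treated cultures. Among the partners, C1ql2 (1.88 ± 0.16, adjusted p = 0.011), Fam19a2 (0.84 ± 0.13), Lphn3 (0.75 ± 0.12), a latrophilin receptor, and Mdga2 (1.17 ± 0.18), a neuroligin inhibitor, rose, and Lin7b fell by 1.00 ± 0.16. These are 3 of 24 further ligands and partners, 1 of 10 scaffolds and inhibitors and 1 of 11 intracellular partners tested, and 0 of 31 other adhesion genes passed. These calls were not stable: when 1 library was left out the 3 ligands and partners went to between 0 and 2, and the calls of Mdga2 and Lin7b to 0 without control replicate 1 or either treated library. Excitatory neuron markers were 925 to 1209 TPM in control and 597 to 622 TPM in treated cultures, and inhibitory neuron markers 639 to 739 and 743 to 1038 TPM. Their part in the member values was not tested.

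CircRNAs of Nlgn1 had 24 and 29 reads in control and 40 and 48 in treated cultures (21.6 and 25.9, and 30.5 and 37.6 RPM). The treated libraries lay above the control libraries, and the difference of 0.50 ± 0.20 did not pass in limma (adjusted p = 0.49). All circRNAs together stood at 8422 and 7915 RPM in control and at 10402 and 8782 RPM in treated cultures. As a share of all circRNA reads, Nlgn1 circles overlapped between the groups. The 807-base circle had 22 and 24 reads in control and 26 and 35 in treated cultures. Nrxn3 circles had 0 and 1 reads in control and 2 and 8 in treated cultures (adjusted p = 0.59). Of all 2445 tested hosts 5.4% were called in either direction, and 0 of 3 tested members, where Nrxn2 alone had an unadjusted p under 0.05 (13.9% of all hosts did); edgeR called 0 as well. A Nrxn2 circle of exons of 182 and 172 bases at chr1:228870700-228875828 (rn5) was called lower, against 3.35% of all circles. It rests on 1 read in each control library and 0 in the treated ones (adjusted p = 0.0067, and 0.57 in edgeR), and the same limma fit called unchanged circles in simulated counts of this design, so it is not read as a change.

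Nlgn2 was low in the cultures compared with rat CA1. It measured 8.45 to 11.4 TPM in the 4 culture libraries and 29.0 and 34.3 TPM in the CA1 layers, while Nlgn1 measured 68.1 to 87.6 and 74.2 to 78.7 TPM. The ratio of Nlgn1 to Nlgn2 was 6.93 to 9.25 in cultures and 2.16 and 2.71 in CA1. The comparison joins different preparations and ages and was not tested.

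The genes whose levels followed each member most closely were found over the 27 rRNA-depleted mouse libraries, as Pearson's r of log2 TPM plus 1 among 12682 genes, as a description. Nlgn1 was closest to Grm5, a glutamate receptor, Slitrk1 and Lrfn5 (0.997 each), Nlgn3 to B3gat1, Maneal and Xkr4 (0.994 each), and Nrxn2 to Kif3c (0.990), Cacnb3 (0.987) and Gpm6a (0.984). Nrxn3 was closest to Lrp1b, Kcnq3 and Chgb (0.988 each), and Nlgn2 to Clstn2 (0.981), Chst2 (0.977) and Dos (0.976). Among the members themselves r ran from 0.842, for Nrxn3 and Nlgn2, to 0.987, for Nlgn1 and Nlgn3. All these libraries share the contrast of brain with other tissues, which enters each r.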

How the data were processed

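RNA of 34 libraries was used; a long-read P30 sample was not analysed here. The authors deposited gene values as TPM and circRNA values as RPM over back-splice junctions, with lists of each circRNA's exon blocks (other fields, per the file headers). The submitters' processing notes list the builds mm9 and rn5; among tools they name Cufflinks 2.2.1, TopHat2 2.0.6 and CASAVA 1.8.2. How circRNAs were called is not stated there. In every library 100% of RPM values were whole multiples of 1 read (tolerance 0.1), so whole reads were recovered.

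The members and lists were chosen with earlier results of these data known. Tests used limma 3.58.1 in R 4.3.3 (eBayes with trend, two-sided, Benjamini-Hochberg over all features, threshold 0.05) on log2(TPM + 1) or log2(RPM + 1 read, namely 1.18, 0.578 and 0.838 RPM in tissues, hippocampus and cultures). A fold change on this scale understates changes of low features. A gene needed 1 TPM, and a circRNA or host sum a value above 0, in 3 tissue or 2 other libraries. Tissue fits used 15 libraries, stage fits 8 and culture fits 4. edgeR 4.0.16 (quasi-likelihood, recovered reads) was an alternative. Fits were tested on simulated data. Named items: all 5 genes, the 3 circles with most reads per host, circles past the threshold, up to 3 list members with the largest difference, and 3 most similar genes at a mean of 5 TPM; circles with the 90-base exon and list members that fell beyond the first 3 were added after their values were seen. Single-library pairs have exact 95% binomial intervals on reads; floors are 3 reads over a group. Some items that these rules name are not reported here.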

Additional observations from a re-analysis of the deposited data

Results flagged for a closer look

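In CA1, 2 member genes had opposite directions in the 2 species. Nlgn2 had a ratio of neuropil to somata of 0.703 in mouse and 1.18 in rat, and Nrxn3 had 0.810 in mouse and 1.08 in rat. Each ratio rests on 1 library per layer, and the difference between species was not tested.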

How the results depend on the processing

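Counts of members called are given as they stood under each alternative. For genes, all 5 stayed higher in brain under every alternative run (Nlgn1 was not tested where the filter left it out), and at P30 against E18 the count of 5 went to 3 with no filter on low values or with equal medians, and to between 2 and 5 when 1 library was left out. For circRNAs the count of 5 in brain was 10 with no filter, 0 with the 20-week libraries only (with or without the replicate block) and 0 to 5 when 1 library was left out, since with 2 brain libraries a brain-only circle cannot pass the filter. At P30 the count of 3 was 0 with no filter, 1 with equal circRNA totals, 1 with the replicate block, 1 in edgeR and 0 to 3 when 1 library was left out. In cultures the count of 1 was 0 with no filter, with equal circRNA totals, in edgeR and when any 1 library was left out. For host sums the count of 2 in brain was 4 with no filter, 0 with the 20-week libraries only (with or without the replicate block) and 1 to 2 when 1 library was left out, and the count of 1 at P30 was 0 with equal circRNA totals and 0 to 1 when 1 library was left out. For the ratio to host, 2 members (Nlgn3, and Nrxn3 at -1.77, adjusted p = 0.0042) were called lower with a pseudocount of 5 reads. Over all features in cultures, 415 circRNAs were called by limma and 0 by edgeR. The cause of these changes was not tested.

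Replicate numbers were shared between groups. Same-numbered libraries correlated in their deviations by 0.016 to 0.098 in tissues, 0.055 to 0.35 in hippocampus and 0.59 in cultures (1 pair of groups). The main fits did not take the numbers to pair the libraries. In cultures, 1 pair of groups cannot decide whether they do. With the replicate block the cultures gave 2 members called lower, Nlgn3 (-0.80, adjusted p = 0.00073) and Nrxn2 (-0.45, adjusted p = 0.019), among 1493 genes higher and 1805 lower, against 275 and 68 without it.

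Directions reversed for values that were not called: the genes Nlgn1 (-0.17 to 0.19 over libraries left out) and Nrxn3 (-0.15 to 0.45) in cultures, negative without control replicate 2, the Nrxn2 ratio to host with a pseudocount of 5 reads (-0.23), with equal circRNA totals (-0.36) and over libraries left out (-0.24, without E18 replicate 1, to 0.54), and the Nlgn1 ratio to host with equal circRNA totals (-0.16). Circle reads limit precision: Nrxn2 circles had 1 to 4 reads in each stage library.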
